A study of Bos taurus with 96 samples.

Results

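Intramuscular fat (IMF), the marbling fat dissected out of the longissimus dorsi, was compared with the longissimus dorsi muscle itself (LD), which was sampled with its marbling fat still in place. The comparison used 36 of the 96 arrays of the study, namely the 12 whose tissue label is intramuscular fat and the 24 labelled LD with pasture feeding. The steers were Wagyu x Angus, Hereford or Angus, with 4 IMF and 8 LD arrays per breed, and each array carries total RNA of 1 sample. All groups share a pasture diet after weaning. Per the study's methods the IMF steers then spent 259 days on grain in a feedlot and were about 26 months old at slaughter, whereas part of the LD samples came from an earlier kill. The sample labels give 259 days for every sample and do not say which LD sample belongs to which kill, nor which LD and IMF samples share a steer, so the fit treats the arrays as independent.

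Marbling fat is laid down late, between and within the bundles of muscle fibres, and is what graders score in beef. A piece of it holds adipocytes, the cells that store triacylglycerol, together with the vessels, nerves, connective tissue sheets and immune cells that run through a muscle, and a dissected piece can carry muscle fibres. Skeletal muscle fibres carry their own contractile proteins, a dense set of mitochondria, and muscle forms of many enzymes for which other tissues use a different gene. In total RNA of such mixed tissue, fewer cells of a type and less RNA per cell cannot be told apart.

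Expression is given on the log2 scale of the processed spot signal minus the 75th percentile of the array, so 0 is the 75th percentile of an array, and all differences are IMF minus LD. They come from a limma fit of tissue and breed, the error printed with a difference is its standard error, and adjusted p is by Benjamini-Hochberg over 34227 probes. The share of probes well above background had a median of 82.74% on IMF arrays (76.59 to 91.51%) and 73.95% on LD arrays (66.23 to 81.12%). The 75th percentile of the log2 signal had a median of 9.825 on IMF arrays and 9.269 on LD arrays, with ranges of 9.634 to 10.112 and 8.512 to 9.611. All 12 IMF arrays were scanned on the same day as 8 of the LD arrays, 4 Angus and 4 Wagyu x Angus. The other 16 LD arrays were scanned on 2 other days. Values from the 20 arrays of the shared day are given as the same-day difference. No Hereford LD array was among them, so with breed fitted that difference rests on Angus and Wagyu x Angus. No slide held both tissues, so slide was also fitted as a random block.

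Of the 34227 probes, 26129 or 76.3% passed an adjusted p of 0.05. These were 12486 probes higher in IMF, which is 36.5% of those tested, and 13643 lower, which is 39.9%. Higher probes were thus 47.8% of those called, against 27.4% with normexp background correction and 85.6% in the deposited log2 table, which is not scaled between arrays (51% once it was scaled to the 75th percentile). On the shared scan day 24879 probes passed, and 22921 passed in both with the same direction, against 5 in opposite directions. With slide as a random block 22524 probes passed. A total of 6681 probes, or 19.5%, passed the threshold with no overlap between the 12 IMF and the 24 LD arrays, of which 2752 were higher and 3929 lower in IMF. Among the 10653 genes with a name, each taken by its brightest probe, 36.9% were higher and 43.6% lower, and 18.5% were higher and 14.5% lower by at least 1 on the log2 scale, with a median difference of -0.09. These shares are the background for every count of genes below.

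Genes of the fat cell were among those highest in IMF over LD. FABP4, the fatty acid carrier of adipocytes, ranged from 6.91 to 8.30 on the IMF arrays with a median of 7.97, and from -0.52 to 5.62 on the LD arrays with a median of 3.11. All 12 IMF arrays lay above all 24 LD arrays, and the LD arrays spread far more widely. The difference was 5.07 ± 0.47, or 33.6-fold (adjusted p = 6.23e-12, limma), and 3.57 on the shared day. CIDEC, which fuses lipid droplets into large ones, ranged from 4.99 to 7.89 (median 6.97) in IMF and from -1.37 to 4.92 (median 2.33) in LD. The groups again did not overlap, though the lowest IMF array and the highest LD array were close. Its difference was 5.04 ± 0.50 (adjusted p = 3.53e-11, limma). PLIN1, the coat protein of the adipocyte lipid droplet, ranged from 1.75 to 4.71 (median 3.38) in IMF and from -3.55 to 1.26 (median -1.16) in LD, a difference of 4.89 ± 0.40. ADIPOQ, the adipocyte hormone adiponectin, ranged from 1.40 to 4.08 (median 2.98) in IMF and from -3.53 to 0.95 (median -1.19) in LD, a difference of 4.18 ± 0.38. PPARG, the master regulator of fat cell formation, ranged from 1.80 to 3.75 (median 2.79) in IMF and from -1.42 to 0.50 (median -0.70) in LD, a difference of 3.48 ± 0.18. LEP, which encodes leptin, was well above background on all 12 IMF arrays and on 11 of the 24 LD arrays, and its difference was 3.81 ± 0.26.

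Of 18 adipocyte marker genes with a probe, 16 were higher in IMF and 1 was lower, with a median of 3.36 (3.13 on the shared day). THRSP, a lipogenic regulator, had the largest difference at 6.12 ± 0.59, with 1 LD array inside the IMF range. RETN, at -0.42, did not pass. The exception was GPD1, the cytosolic glycerol-3-phosphate dehydrogenase that is often used as a marker of fat cell differentiation. It ranged from 5.26 to 6.43 (median 5.67) in IMF and from 6.67 to 7.92 (median 7.26) in LD. All IMF arrays lay below all LD arrays, with a difference of -1.46 ± 0.12 (adjusted p = 2.21e-13, limma), and its 3 probes were all lower. In subcutaneous fat its mean was 5.94, within the IMF range and below that of LD.

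**Figure D1:**
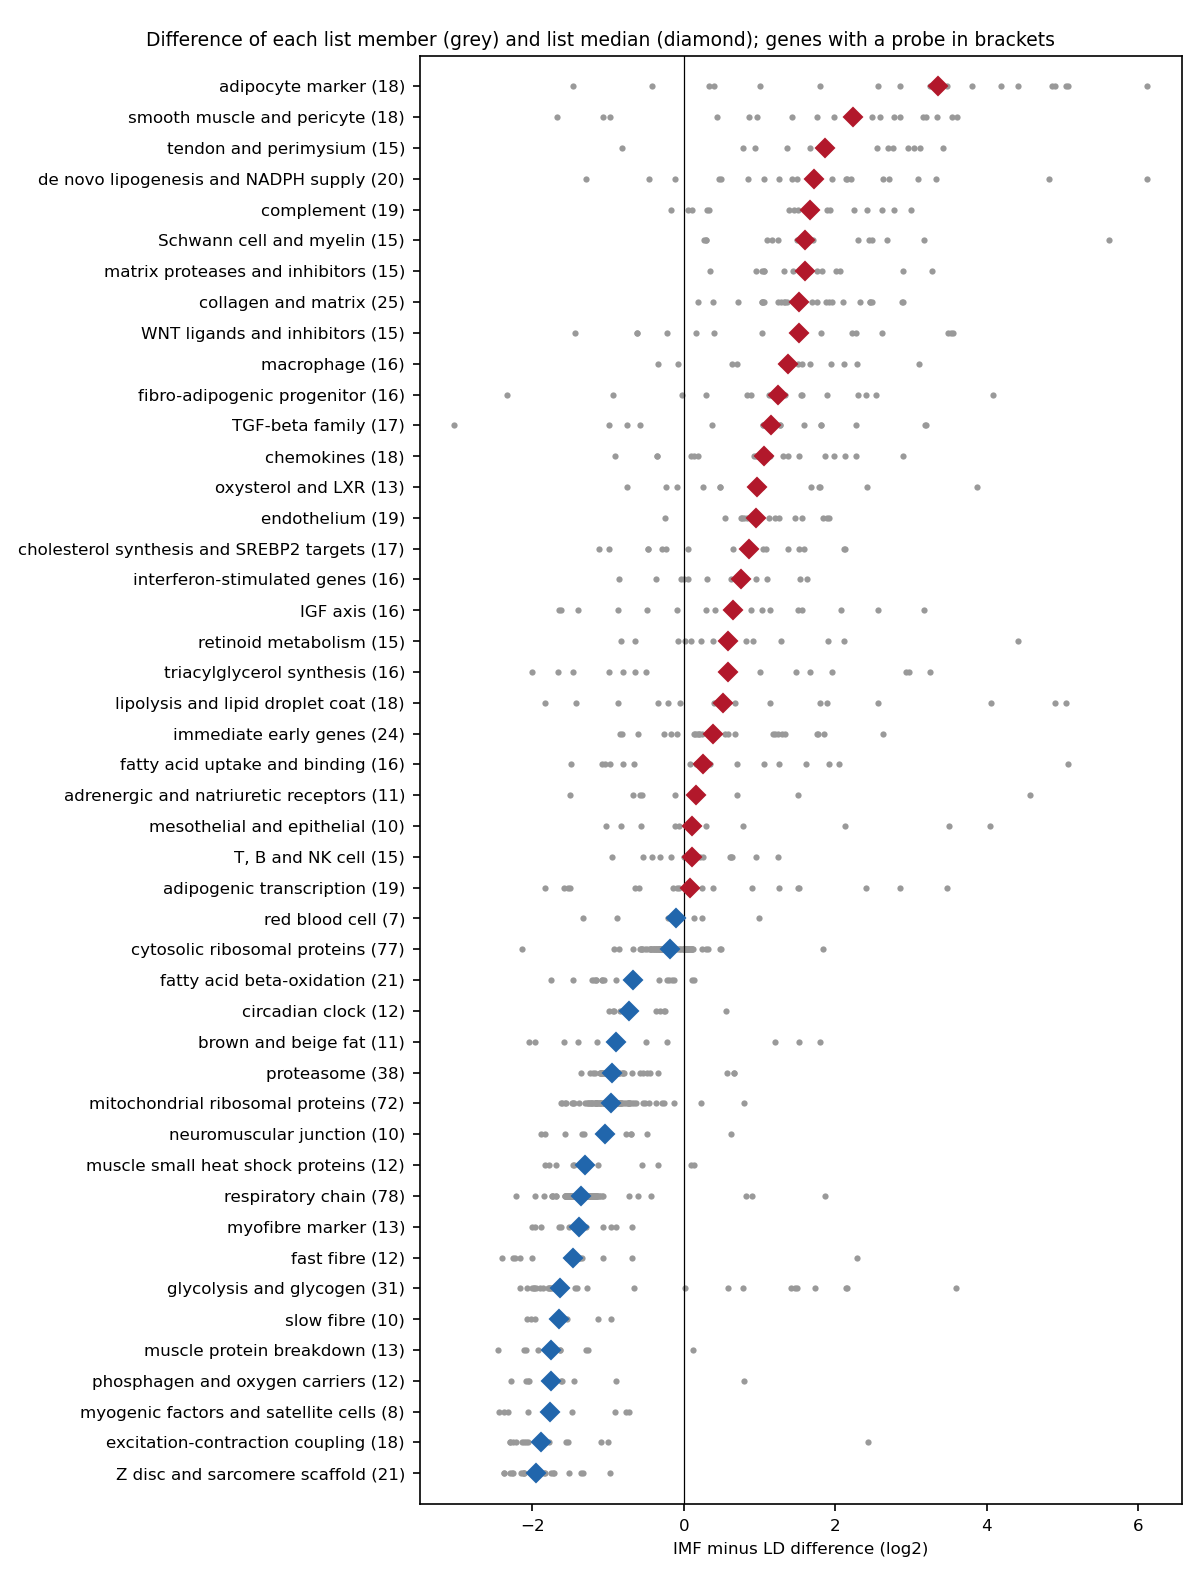
Difference between IMF and LD on the log2 scale (horizontal axis) for every member of 46 gene lists (grey points) with the list median as a diamond, red above 0 and blue below; the number after each list name is its genes with a probe. Adipocyte markers have the highest median at 3.36 and Z disc genes the lowest at -1.95.

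By the naming rule, the 12 highest differences without overlap were those of GRP, MAL2, S100G, CP, HP, FABP4, CIDEC, SLITRK4, PLIN1, C1orf168, TRARG1 and ELOVL6. GRP, the precursor of gastrin-releasing peptide, led with IMF arrays from 0.71 to 3.20 (median 1.56) against LD arrays from -7.47 to -2.24 (median -4.88). Its probe was well above background on only 15 of the 24 LD arrays, and the difference was 6.64 ± 0.49 (adjusted p = 3.34e-14, limma). MAL2, a membrane traffic protein, differed by 5.33 ± 0.45 and S100G, a calcium-binding protein, by 5.32 ± 0.41. CP and HP encode ceruloplasmin and haptoglobin, a copper and a haemoglobin carrier of plasma, and differed by 5.25 ± 0.36 and 5.22 ± 0.41, with 10 and 11 of the LD arrays well above background. TRARG1, which takes part in glucose transporter traffic in fat cells, differed by 4.86 ± 0.40. SLITRK4, a neuronal membrane protein, differed by 4.93 ± 0.34, and C1orf168 by 4.88 ± 0.38, with 11 LD arrays well above background. Where many LD arrays are at background, the size of a difference is imprecise. On the shared day these 12 differences ran from 3.57 for FABP4 and 3.67 for CIDEC to 5.61 for GRP and 5.73 for CP, and apart from CP each was smaller than over all arrays.

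Fat synthesis followed the adipocyte markers. Of 20 genes of de novo lipogenesis and NADPH supply, 17 were higher in IMF and 2 lower, with a median of 1.72. ELOVL6, which extends palmitate to stearate, ranged from -0.002 to 2.75 (median 1.73) in IMF and from -4.54 to -1.29 (median -3.24) in LD, with a difference of 4.83 ± 0.26. The groups did not overlap, and all 4 of its probes were higher. ELOVL5 (3.33) and the fatty acid synthase FASN (3.09 ± 0.26) came next. The lower members were SREBF1 (-0.46), the transcription factor that drives the pathway, and MID1IP1 (-1.29). Triacylglycerol synthesis was divided, with 9 of 16 genes higher and 7 lower. DGAT2, which adds the last acyl chain, differed by 3.25, and PCK2 and PCK1, which feed glyceroneogenesis, by 2.97 and 2.93. AGPAT5 (-2.0), MOGAT1 (-1.66, and -1.07 on the shared day, where it did not pass), GPD1 (-1.46), LPIN1 (-0.98), GPAT4 (-0.80), GK (-0.65) and AGPAT3 (-0.50) were lower in IMF.

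Lipid droplet and lipolysis genes were also mixed, with 11 of 18 higher and 5 lower. G0S2, an inhibitor of the first lipase, differed by 4.06 ± 0.26 and LIPE, the hormone-sensitive lipase, by 2.56 ± 0.21. FITM1 (-1.84), CIDEB (-1.42), PLIN5 (-0.87), PLIN3 (-0.34) and ABHD5 (-0.21) were lower, the last not past the threshold with slide as a random block (adjusted p = 0.101, limma). Of 16 genes of fatty acid uptake and binding, 8 were higher and 6 lower. LPL, the lipase of the vessel wall, differed by 2.05, LRP1 by 1.92 and ACSL6 by 1.61. VLDLR (-1.48), ACSL1 (-1.08), SLC27A1 (-1.04), FABP3 (-0.98), SLC27A6 (-0.80) and ANGPTL4 (-0.66) were lower, and SLC27A6 lost its call under 9 of 16 other settings and when any of 32 of the 45 single arrays or slides was left out. FABP3 (-0.51) and ANGPTL4 (-0.27) did not pass under quantile normalisation, nor ANGPTL4 with slide 9 left out.

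Transcription factors of fat cell formation did not move together. Of 19 with a probe, 9 were higher and 5 lower, and the median was 0.08. Beside PPARG, CEBPA (2.85) and EBF1 (2.40) were higher. ESRRA (-1.83), PPARGC1A (-1.58), HOXC10 (-1.52), STAT5B (-1.50) and PPARA (-0.65) were lower, and the first 2 of these drive mitochondrial genes in muscle. In the list of brown and beige fat genes, 3 of 11 were higher, CIDEA (1.80), EBF2 (1.52) and DIO2 (1.21, and 0.14 with normexp, where it did not pass), and 6 were lower, led by COBL (-2.04) and COX8B (-1.97). Its median was -0.89, and -0.31 on the shared day.

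Myofibre markers fell, by a smaller median than the 3.36 by which adipocyte markers rose. All 13 myofibre markers with a probe were lower, between -2.0 and -0.68, around a median of -1.39. MYH7, the slow myosin heavy chain, ranged from 5.71 to 8.21 (median 7.45) in IMF and from 8.38 to 9.12 (median 8.77) in LD, a difference of -1.64 ± 0.18 (adjusted p = 5.32e-10, limma). The groups did not overlap, yet every IMF array was more than 5 above its own 75th percentile for this gene. MYH2, a fast myosin, ranged from 6.23 to 8.27 (median 7.64) in IMF and from 8.54 to 9.25 (median 8.83) in LD, a difference of -1.37 ± 0.16. ACTA1, the skeletal actin, ranged from 7.11 to 8.81 (median 8.24) in IMF and from 9.03 to 9.83 (median 9.28) in LD, a difference of -1.29 ± 0.15. In subcutaneous rump fat, shown for scale, the same probes of MYH2, MYH7 and ACTA1 averaged -7.06, -1.98 and -0.87. The other leading markers were TNNT3 (-2.0), TNNT1 (-1.96) and NEB (-1.88). The size of these differences depends on the scaling, since quantile normalisation gives a myofibre median of -0.67.

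The IMF arrays differed among themselves in how much muscle signal they held. The mean level of the 13 myofibre markers ran from 6.18 to 7.96 over the 12 IMF arrays and from 8.34 to 8.99 over the 24 LD arrays, without overlap. The mean of the 18 adipocyte markers ran from 2.06 to 4.20 in IMF and from -0.74 to 1.85 in LD. Within LD the adipocyte level moved with scan day and breed. On 1 day, which held Hereford and Wagyu x Angus LD, it ran from -0.74 to 0.14, and on the day shared with IMF from 0.42 to 1.85. The remaining day overlapped both ranges, with 4 Hereford LD arrays at -0.62 to 0.55 and 4 Angus LD arrays at 1.12 to 1.75. The 4 Wagyu x Angus LD arrays of the shared day lay at 1.09 to 1.85 and the other 4 at -0.74 to 0.14, so that arrays with the same labels formed separate sets. The part of scan day, slide, steer or kill in this was not tested.

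**Figure D2:**
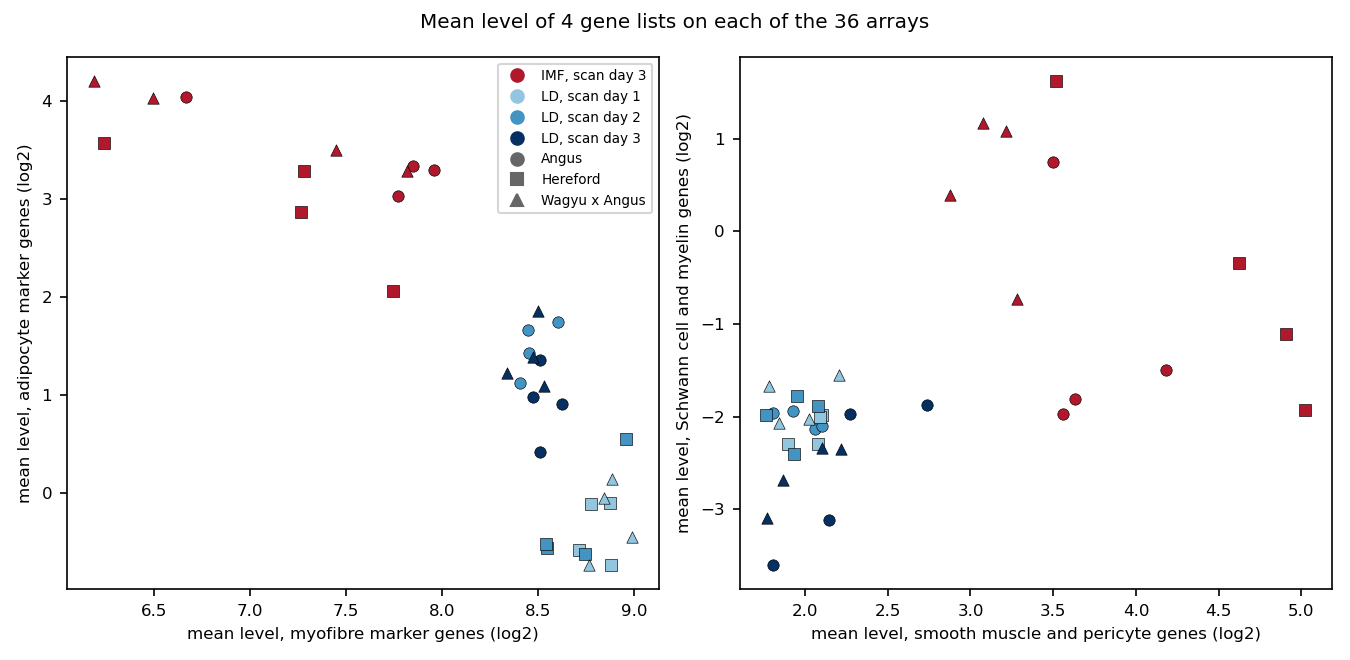
Mean log2 level of 4 gene lists on each of the 36 arrays, with myofibre against adipocyte markers on the left and smooth muscle against Schwann cell genes on the right; red is IMF, blue is LD by scan day, and the marker shape gives the breed. IMF arrays lie at or below 7.96 for myofibre and at or above 2.06 for adipocyte markers, and their Schwann cell level runs from -1.97 to 1.62.

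Structural and signalling genes of the fibre were lower almost without exception. All 21 genes of the Z disc and sarcomere scaffold were lower, with a median of -1.95, with CSRP3 (-2.38), LMOD2 (-2.30) and XIRP1 (-2.26). Of 18 genes of excitation-contraction coupling, which releases calcium in the fibre, 17 were lower, among them RYR1 (-2.30), CLCN1 (-2.29) and TMEM38A (-2.25). The exception was ASPH (2.44), whose gene also encodes an aspartyl hydroxylase of other tissues. Slow and fast fibre genes were lower alike, with 10 of 10 and 11 of 12 members. MYH4 (-2.40), CASQ1 (-2.25) and ACTN3 (-2.23) led the fast and MYL6B (-2.07), MYL3 (-2.02), TNNT1 (-1.96) and MYOZ2 (-1.69) the slow list. PVALB, the calcium buffer parvalbumin, was the fast gene higher in IMF. It ranged from -2.26 to 2.40 (median 0.73) in IMF and from -3.02 to 0.09 (median -1.81) in LD, and the groups overlapped, with a difference of 2.29 ± 0.34 (adjusted p = 1.89e-07, limma).

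Regulators of muscle identity moved the same way. All 8 genes of the myogenic and satellite cell list with a probe were lower, with a median of -1.77. They were led by CDH15 (-2.44), MYF6 (-2.37), MYOG (-2.32) and MYF5 (-2.06), the last well above background on 11 of 12 IMF arrays. At the neuromuscular junction 9 of 10 genes were lower (6 on the shared day), such as RAPSN (-1.88), CHRND (-1.83), CHRNB1 (-1.57) and LRP4 (-1.34), while the acetylcholine receptor subunit CHRNA1 was higher (0.62). Of 13 genes of muscle protein breakdown 12 were lower, with ASB15 (-2.45), CAPN3 (-2.10), TRIM55 (-2.08) and FBXO40 (-1.93) at the front. Of 12 small heat shock proteins 9 were lower and 0 higher, led by HSPB7 (-1.83), HSPB2 (-1.79), HSPB6 (-1.69) and HSPB3 (-1.46). Among phosphagen and oxygen carrier genes 11 of 12 were lower, including AMPD1 (-2.28), AK1 (-2.08), CA3 (-2.06) and ADSS1 (-2.04). GATM, which makes the creatine precursor, was higher at 0.80, though not after slide 8 was left out.

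Among the 12 lowest differences without overlap between the groups were those of ANKRD23, DNAAF9, KLHL34, SMYD1, BAIAP2L2, SHISA2, TMPRSS2, WNK2, CCDC42, PTP4A3 and ASB15. ANKRD23, a stretch-responsive sarcomere protein, ranged from -3.61 to -0.61 (median -1.88) in IMF and from 0.10 to 2.19 (median 1.43) in LD. It had the largest fall, -3.16 ± 0.26 (adjusted p = 4.16e-13, limma), and its subcutaneous mean was -8.00. DNAAF9 differed by -3.02 ± 0.28 and KLHL34 by -2.72 ± 0.28. SMYD1, a muscle histone methyltransferase needed for sarcomere assembly, differed by -2.70 ± 0.25. BAIAP2L2 (-2.57), SHISA2 (-2.56), TMPRSS2 (-2.56), WNK2 (-2.54) and PTP4A3 (-2.47) are less known in muscle. For CCDC42 (-2.49) only 2 IMF arrays and 21 LD arrays were well above background.

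Where an enzyme or protein has a muscle gene and a gene of other tissues, the pair usually moved in opposite directions. In 29 such families 27 had a probe for both genes. In 21 of these the muscle gene was lower and the other gene higher in IMF, in 5 both were lower, and in the remaining 1 the second gene did not pass. The same directions held in all 21 on the shared scan day. The 28 muscle genes were all lower, with a median of -1.64, and 22 of the 28 other genes were higher, with a median of 1.44. These roles are those of the list, and levels do not bear out each of them. GPD1, listed as a gene of other tissues, averaged 7.2 in LD and 5.94 in subcutaneous fat. CPT1B, listed as a muscle gene, averaged 0.603 in IMF and 0.875 in subcutaneous fat.

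Several of these pairs act in the mitochondrion. COX6A2, the muscle subunit of cytochrome oxidase, ranged from 2.79 to 5.51 (median 4.45) in IMF and from 6.39 to 7.04 (median 6.60) in LD, a difference of -2.22 ± 0.20. COX6A1, the subunit of other tissues, ranged from 3.04 to 4.32 (median 3.65) in IMF and from 1.46 to 2.35 (median 1.89) in LD, a difference of 1.86 ± 0.12. Neither gene overlapped between the groups. COX7A1 (-1.84) and COX7A2 (0.91) followed the same pattern, as did the translocases SLC25A4 (-1.45) and SLC25A5 (1.62).

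In glycolysis and glycogen use the pairs were PFKM (-1.77) and PFKL (1.73), PGAM2 (-1.98) and PGAM1 (1.41), ENO3 (-1.62) and ENO1 (0.58), LDHA (-1.95) and LDHB (0.78), PYGM (-2.16) and PYGL (2.13), PHKG1 (-1.79) and PHKG2 (0.75), and FBP2 (-1.90) and FBP1 (3.6). Of the 31 genes of the glycolysis and glycogen list, which does not hold the PHKG2 gene, 9 were higher, the others being PFKP (2.16), PYGB (1.5) and HK1 (1.47), and 21 were lower. FBP1, the liver fructose bisphosphatase, ranged over values that did not overlap between the tissues. Among glucose transporters the basal form SLC2A1 was higher (2.51) and the insulin-responsive form SLC2A4, which fat cells also use, was lower (-0.33), the latter not after slide 8 or 14 was left out.

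In lipid metabolism, ACACA, the lipogenic acetyl-CoA carboxylase, was higher (2.15) and ACACB, which controls fat oxidation, lower (-1.66). FABP4 and FABP3 stood at 5.07 and -0.98, PLIN1 and PLIN5 at 4.89 and -0.87, and FITM2 and FITM1 at 0.50 and -1.84. CPT1B, the muscle carnitine palmitoyltransferase, was lower at -0.90 and at -0.31 on the shared day, where it did not pass (adjusted p = 0.134, limma). FABP3 lost its call with slide as a block (adjusted p = 0.0876, limma) but stood at -1.88 on the shared day (adjusted p = 0.00144, limma), and FITM2 lost its call on the shared day (adjusted p = 0.1, limma).

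In the cytoskeleton and translation, ACTA2 and ACTA1 stood at 2.85 and -1.29, VIM and DES at 2.03 and -0.97, and CFL1 and CFL2 at 1.60 and -1.49. The elongation factors EEF1A1 and EEF1A2 stood at 1.71 and -2.03, with all 9 probes of the first higher. CAPN2 (0.45) and CAPN3 (-2.10), and ADSS2 (0.57) and ADSS1 (-2.04), completed the opposite pairs.

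Both genes were lower for aldolase (ALDOA -0.66, ALDOC -1.78), creatine kinase (CKM -1.62, CKB -1.61), alpha-actinin (ACTN2 -1.83, ACTN4 -0.66), the calcium pump (ATP2A1 -1.54, ATP2A2 -1.61) and glycerol-3-phosphate dehydrogenase (GPD1L -0.35, GPD1 -1.46). ATP2A2 is the calcium pump of slow fibres as well as of other tissues. For ALDOC and CKB, 2 other probes of the same gene were higher, so the direction of these genes rests on the probe. ALDOA turned to 0.05 and ACTN4 to -0.09 under quantile normalisation, neither past the threshold there. In the pair of LIM domain proteins FHL1 was lower (-1.30) and FHL2, at -0.06, did not pass, though on the shared day FHL2 was lower too (-0.36, adjusted p = 0.00788, limma).

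**Figure D3:**
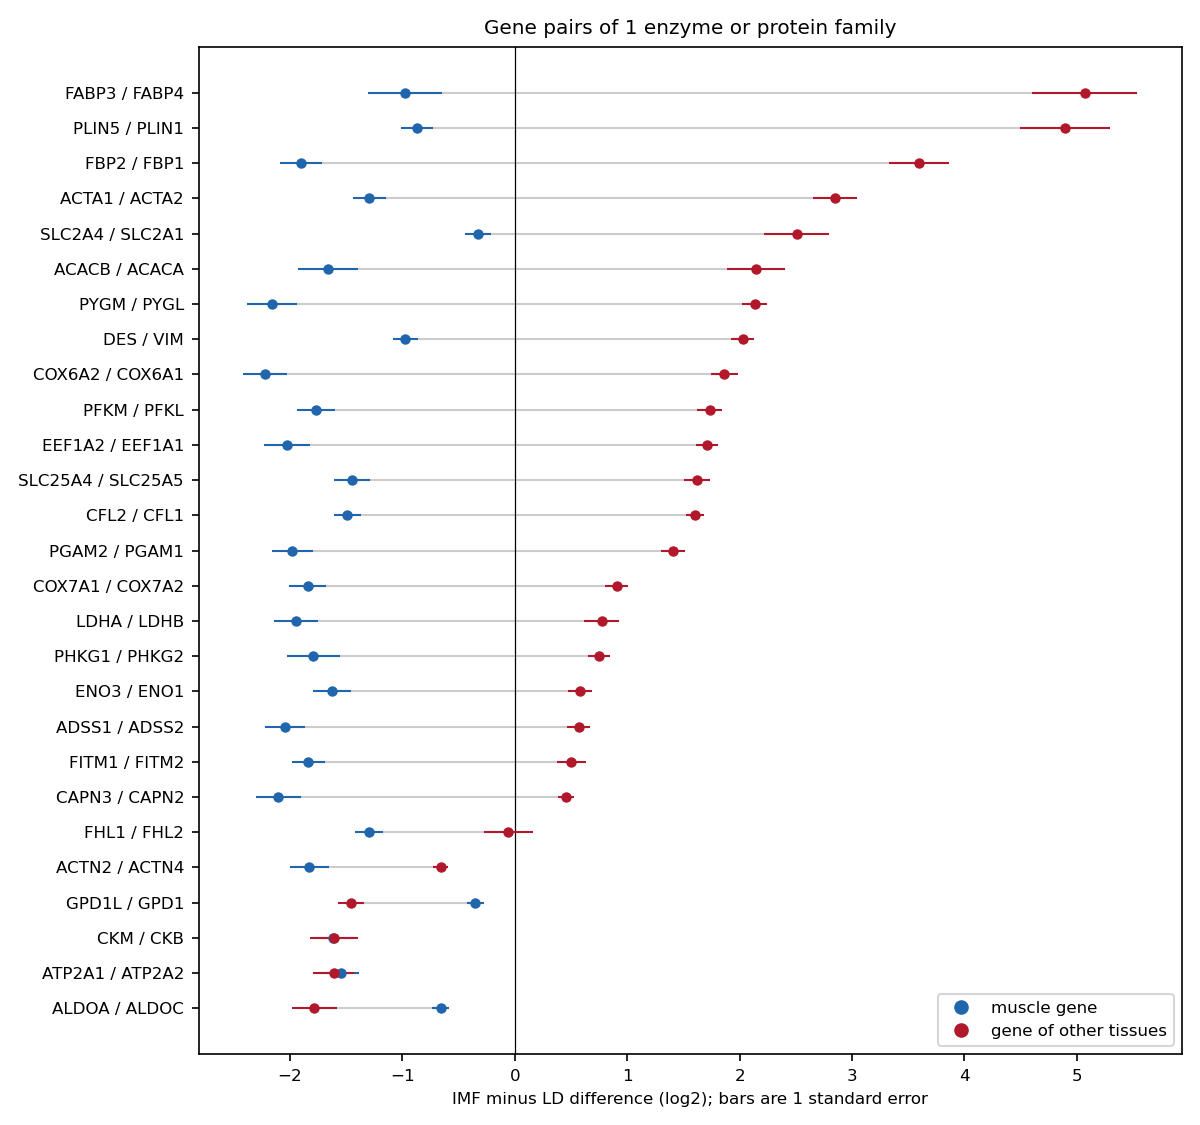
Difference between IMF and LD on the log2 scale (horizontal axis) for the muscle gene (blue) and the gene of other tissues (red) in 27 families, with bars of 1 standard error. In 21 families the blue point lies left of 0 and the red point right of it, from FABP3 and FABP4 at the top to CAPN3 and CAPN2.

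Subunits of large complexes moved as blocks, with a few named exceptions. Of 78 respiratory chain genes 75 were lower, with a median of -1.35, and 72 of the 78 passed without overlap between IMF and LD, against 25% of all named genes. Quantile normalisation gave smaller medians, -0.81 for the respiratory chain, -0.71 for mitochondrial ribosomal proteins and -0.55 for the proteasome. The 3 that were higher were COX6A1, COX7A2 (0.91) and COX8A (0.82), all of them the forms of other tissues. COX8B, the muscle form that pairs with COX8A, was at -1.97. Of 72 mitochondrial ribosomal proteins 69 were lower, with a median of -0.97, such as MRPS25 (-1.62), MRPL34 (-1.61), MRPL48 (-1.56) and MRPS36 (-1.56). MRPS6 (0.79) was higher, and MRPL52 (0.23) lost its call on the shared day (0.10).

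Of 38 proteasome genes 35 were lower, with a median of -0.95, led by PSMA3 (-1.36), PSMC5 (-1.23), PSMB5 (-1.20) and PSMC3 (-1.18). The 3 that were higher, PSMB9, PSMB10 and PSMB8, encode the catalytic subunits of the immunoproteasome, which replace the standard ones where antigens are prepared for display. PSMB10 ranged from -1.87 to -1.23 (median -1.50) in IMF and from -2.63 to -1.91 (median -2.23) in LD, without overlap and with a difference of 0.66 ± 0.07 (adjusted p = 3.16e-10, limma). PSMB9 differed by 0.66 ± 0.10 and PSMB8 by 0.57 ± 0.10, both with overlap, and 1 of the 3 PSMB8 probes was lower.

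Cytosolic ribosomal proteins had 49 of 77 genes lower and 7 higher with a median of -0.19, which flips to 0.35 under quantile normalisation. Their extremes were a pair. RPL3L, the muscle-specific form of ribosomal protein L3, ranged from 1.40 to 4.12 (median 2.97) in IMF and from 4.59 to 5.36 (median 5.07) in LD, a difference of -2.14 ± 0.21. RPL3 ranged from 4.38 to 6.02 (median 5.54) in IMF and from 3.21 to 4.01 (median 3.51) in LD, a difference of 1.83 ± 0.11. Neither overlapped between the groups. The next lower members were RPS27L (-0.92) and RPL22L1 (-0.85), which also encode variant forms. Higher by less were RPS4Y1 (0.48), RPS4X (0.48), RPS6 (0.32), RPL35A (0.29), RPL17 (0.24) and RPL11 (0.12), the last of them past the threshold in the main comparison but not with arrays centred on the mean (0.07).

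**Figure D4:**
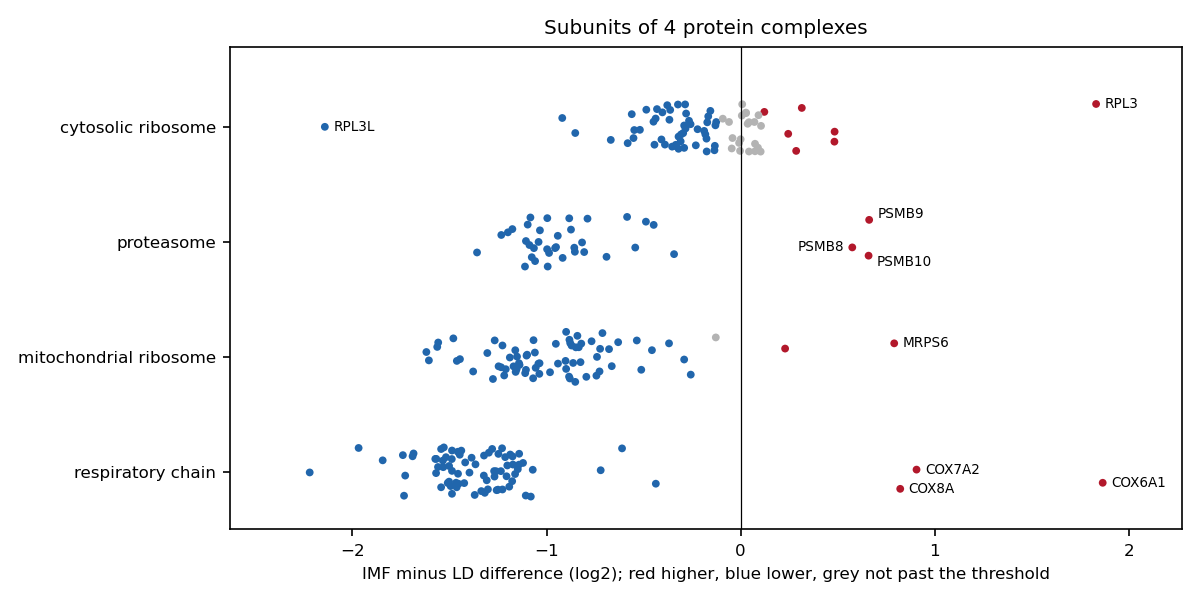
Difference between IMF and LD on the log2 scale (horizontal axis) for each subunit of the respiratory chain (78 genes), mitochondrial ribosome (72), proteasome (38) and cytosolic ribosome (77); red is higher, blue lower and grey not past the threshold, and vertical scatter within a row has no meaning. The named points to the right of 0.5 are the exceptions described in the text.

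For several genes named in this comparison different probes passed in opposite directions. These were ACTG2, ACTN4, ALDOC, ATP2A2, CHRNA1, CKB, COL11A1, COL18A1, DIO2, DOK4, FITM2, FOSB, KRT8, PGAM1, PSMB8, RPL22L1, SFRP5, STARD3, STRA6 and SYNPO2, and the direction given is that of the brightest probe.

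Mitochondrial fat oxidation followed the respiratory chain only in part. Of 21 beta-oxidation genes 16 were lower and 0 higher, with a median of -0.68 (-0.41 under quantile normalisation). On the shared day the median was -0.90, with 17 lower and 1 higher. UCP3 (-1.76), ETFA (-1.46), SLC25A20 (-1.22) and ETFDH (-1.19) led, and 5 genes did not pass.

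Genes of the vessel wall, nerve and connective tissue were the other large block that was higher in IMF. Of 18 smooth muscle and pericyte genes 14 were higher and 3 lower, with a median of 2.23. CNN1, the smooth muscle calponin, ranged from 3.83 to 7.83 (median 5.47) in IMF and from 1.18 to 4.14 (median 2.06) in LD. A single LD array lay above the lowest IMF array, and the difference was 3.61 ± 0.27 (adjusted p = 3.29e-14, limma). SORBS2 (3.53), the smooth muscle myosin MYH11 (3.34) and its kinase MYLK (3.19) were close to it. In subcutaneous fat the means of CNN1, MYH11 and ACTA2 were 1.59, 1.83 and 3.59, near the LD means of 2.08, 2.33 and 4.07 and below the IMF means of 5.69, 5.68 and 6.92. The lower members were DES (-0.97), SYNPO2 (-1.07) and ACTG2 (-1.67), and the first is shared with skeletal muscle. For SYNPO2 and ACTG2 a second probe was higher.

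Nerve sheath genes were higher and very uneven. Of 15 Schwann cell and myelin genes 13 were higher and 0 lower, with a median of 1.60. PMP2, a lipid-binding protein of myelin, ranged from -6.06 to 3.44 (median -0.04) in IMF and from -8.04 to -3.52 (median -5.67) in LD, where 9 arrays were well above background. The IMF arrays ran from within the LD range to far higher levels, and the difference was 5.61 ± 0.73 (adjusted p = 1.76e-08, limma). CDH19 (3.17) was higher too. KRT18 had a similar spread, from -3.45 to 3.78 in IMF (median 0.14) and from -5.62 to -2.50 in LD (median -3.48), with a difference of 4.05 ± 0.54. It led the 10 mesothelial and epithelial genes, of which 5 were higher, with CLDN10 (3.50) and CLDN1 (2.12), and 3 lower, UPK3B (-1.02), KRT8 (-0.83) and MSLN (-0.56). MSLN lost its call with slide as a random block (adjusted p = 0.0761), with the spread taken from all 96 arrays (0.224), with scan day as a block over all 96 arrays (0.386, limma) and with slide 9 left out. KRT19, at -0.06, did not pass.

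Connective tissue genes rose together. Of 25 collagen and matrix genes 24 were higher and 0 lower, with a median of 1.52, led by ELN (2.90), COL18A1 (2.88), LAMA4 (2.49) and LOX (2.45). Their mean level ran from 2.24 to 3.39 in IMF and from 0.86 to 1.63 in LD, without overlap. All 15 matrix proteases and inhibitors were higher, with a median of 1.59, among them MMP14 (3.27), ADAMTS4 (2.89), RECK (2.06) and ADAMTS1 (2.01). Tendon and perimysium genes had 14 of 15 higher, with TNC (3.42), MKX (3.12), TNMD (3.04) and BGN (2.96) in front and COL11A1 (-0.81) lower. TNMD, tenomodulin of tendon, averaged -7.00 in subcutaneous fat and -3.05 in LD, and 8 LD arrays lay above the lowest IMF array.

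Progenitor genes of muscle connective tissue divided. Of 16 fibro-adipogenic progenitor genes 12 were higher, such as F3 (4.08 ± 0.25), which encodes tissue factor, TWIST1 (2.53) and OSR1 (2.41). LY6E (-0.93) was lower, as was DLK1, the preadipocyte factor that holds back fat cell differentiation. DLK1 ranged from 2.68 to 4.99 (median 3.87) in IMF and from 5.60 to 6.71 (median 6.34) in LD. No IMF array reached the LD range, the difference was -2.34 ± 0.17 (adjusted p = 3.25e-14, limma), and its 5 probes were all lower. The subcutaneous mean was 2.77. H19, an imprinted noncoding RNA of muscle, was lower at -1.40 but at -0.29 on the shared day, where it did not pass.

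Endothelial and macrophage genes were mostly higher, and lymphocyte genes were not. Of 19 endothelial genes 18 were higher, with a median of 0.95, among them PLVAP (1.92), NOS3 (1.89), PECAM1 (1.84) and LYVE1 (1.56). Of 16 macrophage genes 14 were higher, with a median of 1.38. SIGLEC1 (3.1), CD163 (2.28), VSIG4 (2.11) and MSR1 (1.94) led, whereas CD68, at -0.08, did not pass. Lymphocyte genes showed no common direction, with 5 of 15 higher and 4 lower. GZMB (1.24), CCL5 (0.95) and LTB (0.63) were higher and CD4 (-0.95), CD3G (-0.54), PRF1 (-0.42) and CD79A (-0.32) lower. CD3E, at 0.09, did not pass, and GZMB, CD3G, PRF1 and CD79A lost their calls with slide as a block, GZMB also with normexp (0.09). On the shared day CD3G turned to 0.20 and PRF1 stood at -0.04, neither past the threshold. Of 7 red cell genes SLC4A1 (0.99), well above background on 7 LD arrays, was higher, but turned to -0.39 with normexp (adjusted p = 0.00941, limma), and EPB42 (-1.33) and HBE1 (-0.88) were lower. The beta-globin gene HBB, well above background on 11 IMF and 11 LD arrays, did not pass at 0.24.

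Soluble defence factors were higher. Of 19 complement genes 16 were higher and 0 lower, with a median of 1.66, led by CFB (3.00), C4A (2.77), C3 (2.61) and CLU (2.41). Chemokines had 12 of 18 higher, with CCL26 (2.89), CXCL16 (2.27), CCL24 (2.13) and CXCL3 (1.98), and CCL4 (-0.92) and CXCL10 (-0.36) lower, the latter at 0.03 on the shared day. Interferon-stimulated genes had 9 of 16 higher, such as IFI6 (1.63), USP18 (1.53), IFI44L (1.09) and MX1 (0.95), and 2 lower, MX2 (-0.86) among them. IFI44L turned to -0.28 with normexp and did not pass there. MX1 and MX2 lost their calls when all 36 LD arrays, with those of supplemented animals, were used.

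Sterol and retinoid genes were higher on balance. CH25H, which makes 25-hydroxycholesterol, ranged from 1.20 to 3.68 (median 2.71) in IMF and from -2.72 to 0.73 (median -1.34) in LD, without overlap, a difference of 3.88 ± 0.26 (adjusted p = 3.79e-15, limma). Its subcutaneous mean was -1.89, near that of LD. Of 13 oxysterol genes 10 were higher, with LCAT (2.42), PLTP (1.79) and NPC2 (1.79), and STARD3 (-0.75) and NR1H2 (-0.23) lower, NR1H2 turning to 0.18 under quantile normalisation, where STARD3 (-0.17) did not pass. Of 17 cholesterol synthesis genes 10 were higher, with SQLE (2.12), NSDHL (1.58) and CYP51A1 (1.52). MVD (-1.12), FDFT1 (-0.99), MVK (-0.47), FDPS (-0.47) and IDI1 (-0.29) were lower, the last not on the shared day (-0.23) and MVK not under quantile normalisation (-0.18). RBP4, the plasma retinol carrier, led 9 of 15 retinoid genes that were higher at 4.41 ± 0.26, with LRAT (2.11, and 0.29 with normexp, where it did not pass), RARRES1 (1.90) and CRABP2 (1.28). RARA (-0.83) and STRA6 (-0.65) were lower, STRA6 not on the shared day (-0.30).

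Adrenergic and natriuretic receptors and the phosphodiesterases of the same list went both ways, with 4 of 11 higher and 4 lower. The list median was 0.16, and -0.02 on the shared day. PDE3B, the phosphodiesterase through which insulin restrains lipolysis, differed by 4.57 ± 0.31, with 11 LD arrays well above background. ADRB3 (1.5) was higher too, though not with normexp (0.37), and PDE4D (-1.50), ADRA2A (-0.67), ADRA1B (-0.58) and ADRB1 (-0.55) were lower, ADRA1B not on the shared day (-0.39) and ADRB1 not with slide 8 left out.

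The difference between IMF and LD was next compared across breeds. Within breeds the probes past the threshold numbered 23618 for Wagyu x Angus, 21686 for Hereford and 18892 for Angus. No Hereford LD array was scanned on the day of the IMF arrays, so the Hereford difference is also one between scan days. For Angus and Wagyu x Angus, 4 of the 8 LD arrays of each breed shared that day. The difference depended on breed for 1007 probes, or 2.94% of those tested (limma F-test of the tissue by breed terms), against 6627 at an unadjusted p under 0.05. In 767 of the 1007 the IMF minus LD difference was lowest in Wagyu x Angus and in 100 highest there. Over the other settings of the processing the count ran from 57 with the deposited unscaled table to 1321 under quantile normalisation. It was 277 with normexp and 589 with the scaled table. The count also rested on single IMF arrays. It was 504 and 660 without positions 2 and 4 of slide 8, both Wagyu x Angus, 537 and 580 without positions 1 and 3 of slide 9, both Hereford, 618 without the Hereford array of slide 18, and 3103 without the Angus array of slide 8.

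Smooth muscle genes were the list with most breed dependence, 9 of its 18 members against 0 to 3 in every other list. MYLK differed by 4.43 ± 0.23 in Hereford, 2.71 ± 0.23 in Angus and 2.45 ± 0.23 in Wagyu x Angus (adjusted p of the dependence = 0.00171, limma). MYH11 differed by 4.71 in Hereford, 3.07 in Angus and 2.25 in Wagyu x Angus, and ACTA2 by 3.91, 2.62 and 2.02 in the same order (adjusted p = 0.00652 for each, limma). LMOD1 differed by 1.70 ± 0.27 in Hereford, 0.40 ± 0.27 in Angus and -0.78 ± 0.27 in Wagyu x Angus (adjusted p = 0.00172, limma). All 9 genes, the others being CNN1, SORBS2, KCNMB1, TAGLN and SMTN, had their largest difference in Hereford and their smallest in Wagyu x Angus. The mean level of the list ran from 3.52 to 5.02 on the 4 Hereford IMF arrays and from 2.88 to 3.28 on the 4 Wagyu x Angus IMF arrays, while the LD levels of these breeds ran from 1.77 to 2.10 and from 1.77 to 2.22. Of the Hereford IMF arrays 3 shared a slide and 3 of the Wagyu x Angus IMF arrays shared another. The part of slide in this was not tested, and the Hereford difference is also one between scan days. CNN1 (adjusted p = 0.0222), SORBS2 (0.0255), TAGLN (0.0217) and KCNMB1 (0.0492) lost their calls (limma) when position 1 or 3 of slide 9 or the Hereford array of slide 18 was left out. CNN1 also lost it without position 4 of slide 8, and KCNMB1 under most single arrays left out. With scan day as a block, an alternative added after the data were seen, their adjusted p were 0.0528 and 0.0956 (limma). With the deposited unscaled table LMOD1 and MYH11 passed and the other 7 genes did not. KCNMB1, LMOD1 and SMTN were named after their values had been seen.

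**Figure D5:**
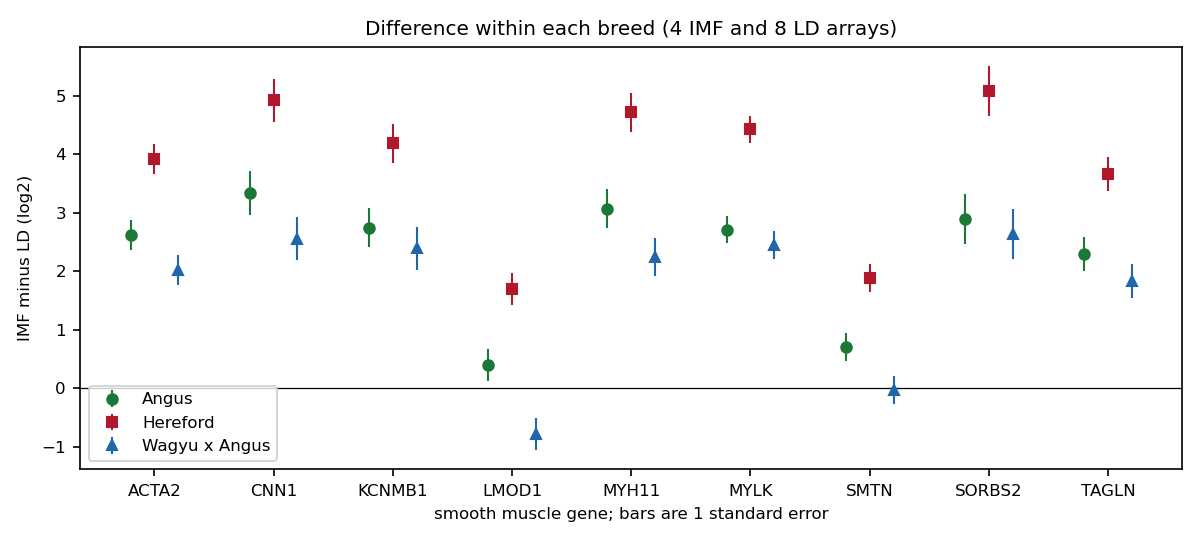
Difference between IMF and LD on the log2 scale (vertical axis) for the 9 smooth muscle genes whose difference depended on breed, in Angus (circles), Hereford (squares) and Wagyu x Angus (triangles), with bars of 1 standard error. Hereford is highest for all 9 genes and Wagyu x Angus lowest, with LMOD1 running from 1.70 to -0.78.

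The 6 genes with the smallest adjusted p of breed dependence were ARL1, LYPD4, NPAS1, FMO2, ADORA1 and DOK4. ARL1, a Golgi traffic protein, differed by -1.36 ± 0.15 in Wagyu x Angus, -0.40 in Angus and 0.15 in Hereford (adjusted p = 0.0017, limma). FMO2, a flavin monooxygenase, differed by -1.52 ± 0.19 in Wagyu x Angus, -0.11 in Angus and 0.15 in Hereford, and DOK4 by -1.77 ± 0.30, 0.00 and 1.01. LYPD4 (-1.09), NPAS1 (-1.24) and ADORA1 (-0.89) were likewise lowest in Wagyu x Angus. In all 6 the Wagyu x Angus difference was negative and past the threshold within that breed. The breed dependence of LYPD4 and NPAS1 was lost with normexp (adjusted p = 0.135 and 0.163, limma), and that of ARL1, LYPD4, NPAS1, FMO2 and ADORA1 with the deposited unscaled table (0.0647 to 0.203).

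Breed dependence also passed for the named genes H19, CD3G, KRT8, CD79A and DKK3. Further list members that the rule does not name passed too, among them 3 of the 16 macrophage genes. H19 differed by -2.72 ± 0.45 in Hereford, -1.78 in Wagyu x Angus and 0.31 in Angus (adjusted p = 0.0148, limma). CD3G differed by -1.52 ± 0.25 in Hereford, 0.00 in Wagyu x Angus and -0.09 in Angus (adjusted p = 0.0149, limma). KRT8 was lowest in Wagyu x Angus (-1.39) and nearest 0 in Angus (-0.30), and CD79A stood at -0.90 in Wagyu x Angus, -0.11 in Hereford and 0.045 in Angus. DKK3, a secreted protein of the Dickkopf family, was higher by 3.49 ± 0.19 over the breeds and highest in Hereford (4.396), with 3.185 in Wagyu x Angus and 2.88 in Angus. The calls of KRT8 (adjusted p = 0.0261), DKK3 (0.0421) and CD79A (0.0473, limma) were lost when any of several single arrays was left out, and that of CD3G without the Hereford IMF array of slide 18.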

How the data were processed

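Total RNA of 96 bovine samples was labelled with Cy3 and hybridised 1 sample per array to Agilent 4x44K arrays. The authors deposited scanner output, in which the processed signal is a background-subtracted intensity per spot without scaling between arrays, and a table of log2 values. The methods describe normalisation with a mixed model, but all 3285792 values of the deposited log2 table equalled, within 0.0001, log2 of the median spot signal minus background with a floor of 1, so the table is not scaled between arrays. Here log2 of the intensity minus the 75th percentile of each array was fitted for 12 IMF and 24 LD pasture arrays with tissue and breed (limma 3.58.1, R 4.3.3), with Benjamini-Hochberg adjustment over 34227 probes and a threshold of 0.05. The methods' equal-variance test was an alternative. Spots of a probe were averaged, and control spots and outlier flags were left out. The precision is limited by the number of arrays, and p-values measure the spread between arrays.

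Gene names came from RefSeq accessions and from names in the study's tables, and 21445 probes (62.66%) were named. A gene was represented by the probe with the highest mean of both group means. The 46 gene lists and the isoform pairs, with 928 of 1066 list entries on the array, and the members compared were chosen with earlier results of these data known, so lists were counted and not tested. Genes named were the 12 highest and 12 lowest without overlap, up to 4 members per list with the largest difference and every member passing opposite to the list median, all isoform genes, the 6 genes with the smallest adjusted p of breed dependence, and fixed cell type markers, apart from some genes that are not reported here. The scripts were tested on simulated data. The labels' replicate number equals the position on the slide and repeats within a breed and tissue, so it cannot mark a steer. Arrays of the same number deviated together only weakly (correlations of 0.051, 0.101, -0.024 and 0.094). That could not show whether IMF and LD samples share a steer, and the numbers were not taken as pairs. Alternatives covered scaling, background correction, the deposited log2 table, filters, samples, slide, scan day and single arrays or slides left out. The scan-day block in the breed fits and the lists on the shared day were added after seeing the data.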

Additional observations from a re-analysis of the deposited data

Results flagged for a closer look

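The difference between IMF and LD depended on breed for 20 of the named genes (limma F-test of the tissue by breed terms). The adjusted p was 0.0017 for ARL1, 0.00171 for ADORA1, DOK4, FMO2, LYPD4, MYLK and NPAS1, 0.00172 for LMOD1, 0.0051 for SMTN, 0.00652 for ACTA2 and MYH11, 0.0148 for H19, 0.0149 for CD3G, 0.0217 for TAGLN, 0.0222 for CNN1, 0.0255 for SORBS2, 0.0261 for KRT8, 0.0421 for DKK3, 0.0473 for CD79A and 0.0492 for KCNMB1. Among these, ARL1, ADORA1, DOK4, FMO2, LYPD4 and NPAS1 were lowest in Wagyu x Angus, and the 9 smooth muscle genes were highest in Hereford. Of the 20, 17 lost the call with the deposited unscaled table, all but DOK4, LMOD1 and MYH11. Calls were lost by 7 with normexp (CD3G, CD79A, DKK3, KCNMB1, KRT8, LYPD4 and NPAS1), by 5 with the scaled table (CD3G, CD79A, DKK3, KCNMB1 and KRT8), by 3 with the replicate block (CD79A, DKK3 and KCNMB1), by 3 with scan day as a block (CNN1, DKK3 and KCNMB1) and by 2 with arrays centred on the mean (CD79A and KCNMB1). Each breed is represented by 4 IMF arrays on 2 or 3 slides, and the part of slide was not tested. No Hereford LD array was scanned on the day of the IMF arrays, so the Hereford difference is also one between scan days.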

How the results depend on the processing

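Of 308 named genes, 290 kept their direction and side of the threshold whichever single array or slide was left out, and 23 of 46 list medians kept their sign and moved by less than the SD of the list level between IMF arrays under the alternatives run for lists, which were quantile normalisation, mean centring, scan day as a block, the shared day and all probes of a gene. The count of probes past the threshold ran from 22524 with slide as a random block to 27297 with normexp background correction, beside 31998 when all 43653 non-control probes were tested. With the replicate number, which equals the slide position, as a block it was 26074. Leaving out 1 array or 1 slide gave 24491 to 26361 probes past the threshold, 11438 to 12729 higher and 12403 to 13869 lower. By at least 1, 5639 to 6262 were higher and 3741 to 4930 lower. Leaving out 1 array gave 504 to 3103 probes that depended on breed. Within breeds it gave 15832 to 19144 past the threshold in Angus, 19468 to 21847 in Hereford and 21660 to 23729 in Wagyu x Angus. The share of higher among called probes was 47.8%, against 27.4% with normexp (7476 higher and 2445 higher by at least 1), 51% with the deposited log2 table scaled to the 75th percentile (12974 higher and 12486 lower) and 85.6% with that table as it stands, unscaled between arrays (21962 higher, 3705 lower, 12103 higher and 782 lower by at least 1). The median of all probes was 0.668 in that table, -0.352 with normexp and -0.154 with quantile normalisation. Breed dependence fell to 277 probes with normexp, 57 with the unscaled table and 589 with the scaled one. The methods' t-test passed 26209 probes unadjusted and 25723 adjusted.

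Quantile normalisation moved list medians to 0.348 for cytosolic ribosomal proteins and -0.132 for T, B and NK cells, both reversed, and to -0.736 for fast fibre, -0.409 for beta-oxidation, 1.648 for fibro-adipogenic, -1.073 for glycolysis, 0.75 for immediate early, 0.42 for interferon, -0.713 for mitochondrial ribosomal, -0.724 for small heat shock, -0.671 for myofibre, -0.545 for proteasome and -0.813 for respiratory chain genes. Scan day as a block gave -0.126 for brown and beige fat, -0.479 for clock, -0.92 for beta-oxidation, 0.077 for fatty acid uptake, 0.878 for IGF, 0.146 for red cell (reversed), 0.306 for T, B and NK, 2.425 for tendon and 2.088 for WNT genes. The shared day alone gave -0.019 for adrenergic (reversed), -0.306 for brown and beige fat, -0.428 for clock, -0.904 for beta-oxidation, 0.896 for IGF, 1.054 for interferon, 0.078 for red cell (reversed) and 2.037 for WNT genes. All probes of a gene gave 0.368 for adrenergic, -1.17 for brown and beige fat, 0.555 for cholesterol, -0.507 for clock and 0.852 for retinoid genes. Moves within that SD included mesothelial and epithelial genes, from 0.113 to 0.543 with all probes and 0.333 on the shared day, and fast fibre genes at -1.981 with all probes.

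Single genes reversed with quantile normalisation (ALDOA 0.052, NR1H2 0.181), normexp (IFI44L -0.278, SLC4A1 -0.388), the scaled table (FHL2 0.022), scan day as a block (NFIL3 -0.004) and the shared day (CD3G 0.201, CXCL10 0.035, NFIL3 -0.113). On the shared day genes that still passed stood more than 1.5 times further from 0 for CXCL3 (3.335), GZMB (1.966), GATM (1.78), CHRNA1 (0.99), PSMB8 (0.94), NR1H2 (-0.452), MVK (-0.738), FMO2 (-0.887), ARL1 (-0.948), GK (-1.153), SLC27A6 (-1.475), MX2 (-1.361) and FABP3 (-1.878), and nearer 0 by as much for LDHB (0.399), ADRA2A (-0.434) and UPK3B (-0.58). FHL2 ran from -0.356 to 0.137 with an array or slide left out. With the deposited table as it stands the reversed genes were ABHD5 0.459, ACTN4 0.02, ADRA1B 0.162, ADRA2A 0.066, ADRB1 0.155, AGPAT3 0.148, ALDOA 0.035, ANGPTL4 0.037, CD3G 0.188, CD79A 0.356, COL11A1 0.017, CXCL10 0.35, DKK1 0.087, FDPS 0.239, FHL2 0.658, FOSB 0.058, GK 0.082, GPD1L 0.372, IDI1 0.391, IGFBP5 0.201, MSLN 0.252, MVK 0.22, NR1H2 0.444, PLIN3 0.375, PPARA 0.169, PRF1 0.238, SFRP5 0.056, SLC2A4 0.355, SREBF1 0.226, STRA6 0.043 and TGFB1 0.135. Calls were lost, with the direction kept, by 25 named genes in that table, 16 with slide as a random block, 15 on the shared day, 14 with scan day as a block, 12 with scan day over all 96 arrays, 9 with quantile normalisation, 7 with normexp (ADRB3 0.371, DIO2 0.145, GZMB 0.088, IGFBP1 0.212, LRAT 0.289, NDP 0.051 and NR1H2 -0.16) and 5 with the spread of all 96 arrays. On the shared day Hereford IMF had no LD array of its breed beside it. The cause of these changes was not tested. Probes not well above background on many LD arrays, such as those of GRP, CP, HP and LEP, limit the precision of the largest differences.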

Other observations

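Secreted growth signals of connective tissue were mostly higher in IMF. Of 17 genes of the TGF-beta family 12 were higher and 4 lower, with a median of 1.15. INHBA, which encodes an activin chain, differed by 3.20, LTBP2, which binds latent TGF-beta in the matrix, by 3.19 and TGFB3 by 2.27. CHRDL2 (-3.03, well above background on 10 of 12 IMF arrays), INHA (-0.99), BMP5 (-0.75) and TGFB1 (-0.57) were lower. Of 15 WNT ligands and inhibitors 9 were higher and 3 lower, with a median of 1.52. SFRP4 (3.55), WNT2B (3.52) and DKK3 (3.49) led without overlap between the groups, and NDP (2.61) was well above background on 1 of 24 LD arrays and did not pass with normexp (0.05). FRZB (-1.44), DKK1 (-0.61) and SFRP5 (-0.61) were lower, DKK1 not on the shared scan day (-0.43), and the 2 probes of SFRP5 passed in opposite directions.

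Insulin-like growth factor genes went both ways, with 9 of 16 higher and 5 lower and a median of 0.65. The binding proteins IGFBP3 (3.17), IGFBP4 (2.56) and IGFBP1 (2.08, well above background on 10 LD arrays) were higher, the last not with normexp (0.21). The receptors IGF1R (-1.64) and IGF2R (-0.86), the adaptor GRB10 (-1.62), H19 (-1.40) and IGFBP5 (-0.48) were lower, IGFBP5 not with slide as a random block (adjusted p = 0.0601, limma). Of 12 clock genes 9 were lower, led by BHLHE41 (-0.99), NR1D1 (-0.92) and BHLHE40 (-0.84), with a median of -0.72 (-0.43 on the shared day, with 7 lower), and NFIL3 was higher (0.55). BHLHE40 and NFIL3 did not pass on the shared day (-0.33 and -0.11). Of 24 immediate early genes 11 were higher and 3 lower, with FOSL2 (2.63), MYC (1.86), CCN2 (1.77) and NR4A3 (1.76) in front. IER5 (-0.85), BTG2 (-0.81) and FOSB (-0.60) were lower, IER5 and FOSB not on the shared day, while FOS (-0.09), JUN (-0.26) and DUSP1 (0.24), which respond to handling of tissue, did not pass.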
